A study of Saccharomyces cerevisiae with 12 samples.

Results

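RiboMeth-seq scores of 13 ribose-methylated nucleotides of the yeast 25S rRNA are described here. They are the targets of 6 guide small nucleolar RNAs (snoRNAs) that each direct methylation of more than 1 nucleotide and have all their listed targets in the 25S rRNA. U18 guides A649 and C650, snR60 guides A817 and G908, U24 guides C1437, A1449 and G1450, snR13 guides A2280 and A2281, snR67 guides G2619 and U2724, and snR48 guides G2791 and G2793. The 13 sites are part of the 37 sites listed in the 25S rRNA and of the 55 listed in the 25S and 18S rRNAs together. The assignment of sites to guides is background knowledge, since the processed files list sites without their guides. The rule that chose the sites uses the guides and not the measured values, although it was set with earlier results of these data known.

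Ribose methylation at these sites is carried out by box C/D small nucleolar ribonucleoproteins (snoRNPs). The snoRNA base-pairs with the pre-rRNA, and the methyltransferase of the snoRNP, Nop1 in yeast, modifies the nucleotide that is paired with the fifth nucleotide upstream of box D or of the internal box D′. A snoRNA with a guide sequence next to each of these boxes can reach targets far apart, and a small change of register reaches neighbouring nucleotides. Dbp7 is an RNA helicase of the DEAD-box family that acts in the nucleolus during assembly of the large ribosomal subunit, the stage at which these snoRNPs are bound to the pre-rRNA. In the R64 annotation, SNR18 (U18) lies within EFB1, which encodes a translation elongation factor, and SNR24 (U24) within ASC1, which encodes a ribosome-associated protein. SNR67 has another box C/D snoRNA gene, SNR53, within 1 kb, and SNR60, SNR13 and SNR48 lie within no other annotated gene.

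The target regions are shown because their spacing sets how the scores can be compared. Each is printed 5′ to 3′ as the deposited tables give it, with 12 nucleotides on either side of the outer targets and the targets of the guide in capitals. Positions are those within the 25S rRNA, whose gene the files name RDN25-1 (the ribosomal DNA of chromosome XII).
U18 (nucleotides 637 to 662): ccgucuugaaacACggaccaaggagu
snR60, upstream target (805 to 829): gaaagauggugaAcuaugccugaau
snR60, downstream target (896 to 920): auuuggguauagGggcgaaagacua
U24 (1425 to 1462): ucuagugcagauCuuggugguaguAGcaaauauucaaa
snR13 (2268 to 2293): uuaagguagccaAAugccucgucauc
snR67, upstream target (2607 to 2631): ggaguuuggcugGggcggcacaucu
snR67, downstream target (2712 to 2736): uugauuuugauuUucagugugaaua
snR48 (2779 to 2805): aauuugaggcuaGaGgugccagaaaag
The 6 guides give 8 pairs of targets of the same guide. A649 and C650, A1449 and G1450, and A2280 and A2281 are adjacent, G2791 and G2793 are 2 nucleotides apart, and C1437 lies 12 nucleotides before A1449. The snR60 targets are 91 and the snR67 targets 105 nucleotides apart. Of the 13 nucleotides, 5 are A, 5 are G, 2 are C and 1 is U.

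The libraries come from a complementation system in the BY4741 background, with 3 libraries in each of 4 groups. WT + EV is a wild-type strain with an empty vector and Δdbp7 + EV is the strain without DBP7, taken from the yeast deletion collection, with the same empty vector. The other groups are the deletion strain with a low-copy pRS415 plasmid that expresses, under control of the DBP7 promoter, wild-type Dbp7 (Δdbp7 + Dbp7WT) or a form with a glutamate-to-glutamine substitution in its DEGD motif that abolishes catalysis (Δdbp7 + Dbp7DQGD). All cultures were growing exponentially when total RNA was extracted, and according to the series design the 3 replicates of a group are biological ones. WT + EV and Δdbp7 + Dbp7WT are called here the libraries with active Dbp7, and the other groups the libraries without it. Between the empty-vector groups the deletion strain is set against the wild-type strain, whereas the plasmid-borne groups share the deletion strain and the vector backbone and differ in the DBP7 allele. Growth rates were not among the data used here, and their part in the results was not tested.

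Alkaline hydrolysis cleaves next to a methylated ribose less often than next to an unmethylated one, so methylated nucleotides have few read ends. The extent of methylation was read as the RMS score, the fraction methylated: 1 minus the read ends at a nucleotide over the weighted mean of the 6 nucleotides on either side. Libraries held 5580519 to 23549872 read ends. The median number of ends per 25S nucleotide was 1389 to 4078 with active Dbp7 and 740 to 1458 without, and the 25S rRNA took 60.4% to 64.3% of read ends with active Dbp7 and 45.0% to 52.4% without. Depth and 25S share thus differed between the groups compared, and their part in the results was not tested. The targets themselves had 10 to 470 read ends, so a score rests on few ends at the site and many around it. The spread between replicates was 1.31 (A649) to 7.68 (G2791) times the spread expected from counting alone. Counting intervals would therefore understate the error, and errors are given here as the standard deviation (SD) over libraries or the standard error (SE) of the fit.

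Because a score is relative to the flanks, neighbouring targets enter each other's score. This holds for the target pairs of U18, snR13 and snR48 and for A1449 and G1450. In all, 9 of the 13 sites have another listed site within 6 nucleotides, against 9 of the other 24 listed 25S sites, and 6 of the 13 are adjacent to one, against 2 of 24. Leaving listed sites out of the flanks raised the mean score by 0.00888 at C650, from 0.923 to 0.932, and by 0.00147 to 0.0067 at the other 8 sites concerned. A817, G908, C1437 and G2619 have no listed site in their flanks.

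All 13 sites were highly methylated. Means over the 12 libraries lay between 0.905 (A817) and 0.984 (A649), with a median of 0.943, and each was at least 0.9. Of the other 24 listed 25S sites, 14 had a mean of at least 0.9, and their means ran from 0.589 to 0.982 with a median of 0.924. Some targets of the same guide differed in level. A649 scored higher than C650 in 12 of 12 libraries, by 0.0609 on average (SE 0.00974, adjusted p = 0.000286, limma on the differences within libraries, adjusted over all 666 pairs of 25S sites). A2280 scored higher than A2281 in 11 of 12 libraries, by 0.0386 (SE 0.00641, adjusted p = 0.000376), and G2619 higher than U2724 in 10 of 12, by 0.037 (SE 0.00974, adjusted p = 0.00651). Thus 3 of the 8 same-guide pairs differed at adjusted p under 0.05, where 74.3% of all pairs of 25S sites did. The difference between A817 and G908 was -0.0166 (SE 0.00691, adjusted p = 0.0503), with A817 lower in 9 of 12 libraries. It passed with the replicate number across all 4 groups as a block (adjusted p = 0.0232). Between empty-vector and plasmid-borne groups, however, same-numbered libraries correlated only at -0.205 to 0.113 in their deviations from the group means. Differences among the 3 U24 targets were between -0.00816 and 0.000758, with SEs of 0.0062 to 0.00877. G2791 and G2793 differed by -0.0152 (SE 0.0186, adjusted p = 0.473).

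These orders depended on which fragment ends were counted. From 5′ ends alone, A2281 scored 0.991 ± 0.00496 (SD within groups) and A2280 0.980 ± 0.0144, and the difference was -0.0103 (adjusted p = 0.0512). U2724 then scored above G2619 (difference -0.0144, adjusted p = 0.0324) and G2791 above G2793 (0.0448, adjusted p = 9.59e-06). A1449 minus G1450, 0.000758 in the sum of both ends, was -0.0206 from 5′ ends (adjusted p = 0.00088). The order of A649 and C650 was the same from either kind of end.

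In libraries without active Dbp7, A1449, a U24 target, had a lower score. C650, a U18 target, was lower in every same-numbered pair of libraries, as were A1449, C1437 and A817, but missed the threshold in the pooled comparison. It passed when the replicate numbers were paired (as did 38.2% of all 55 sites), from 5′ ends alone (41.8%) or on the log2 scale (share not counted). C1437 and G1450 also passed when paired and from 5′ ends. To ask whether the sites depend on Dbp7 and its catalytic activity, the 6 libraries without active Dbp7 were compared with the 6 with it in 1 limma fit over all 55 sites, two-sided, with Benjamini-Hochberg adjustment. Of the 13 targets 1 passed at adjusted p under 0.05, A1449, where 16.4% of all 55 sites did. Scores were lower at 11 of the 13 and higher at 2, with a median difference of -0.00633, and 4 had an unadjusted p under 0.05. Of all 55 sites, 39 were lower and 15 had an unadjusted p under 0.05. Of the other 24 listed 25S sites, 19 were lower, 8 of them past the threshold, with a median of -0.0312. In Δdbp7 + EV against WT + EV, A1449 was again the target that passed, where 9.09% of the 55 sites did, and likewise in Δdbp7 + Dbp7DQGD against Δdbp7 + Dbp7WT (10.9%). In Δdbp7 + Dbp7DQGD against WT + EV both A1449 and C650 passed (16.4% of all sites), and in Δdbp7 + Dbp7WT against WT + EV none of the 13 passed (0% of all sites, and none of the 13 had an unadjusted p under 0.05). These last comparisons set the deletion strain with plasmid-borne DBP7 against the wild-type strain with the empty vector. With Dbp7DQGD, the strain, the plasmid and the set of libraries can therefore not be told apart from the allele. With Dbp7WT both groups express wild-type Dbp7, and the strain, the plasmid and the set cannot be told apart from each other.

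Same-numbered libraries of WT + EV and Δdbp7 + EV, and of the plasmid-borne groups, deviated together from their group means. With the replicate number within each set as a block, 5 of the 13 targets passed in the pooled comparison, all lower without active Dbp7: A1449, C650, C1437, A817 and G1450 (38.2% of the 55 sites passed). The paired fit gave 3 targets for Δdbp7 + EV against WT + EV, A1449, C650 and C1437 (30.9% of all sites), and 4 for Δdbp7 + Dbp7DQGD against Δdbp7 + Dbp7WT, these 3 and A817 (29.1%).

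The U18 targets are adjacent in the sequence, and the difference between their changes was the largest among the 8 pairs. C650 scored 0.967, 0.971 and 0.977 in WT + EV and 0.913, 0.920 and 0.899 in Δdbp7 + EV. It scored 0.957, 0.871 and 0.959 in Δdbp7 + Dbp7WT and 0.896, 0.834 and 0.908 in Δdbp7 + Dbp7DQGD. WT + EV lay above all other libraries, while replicate 2 of both plasmid-borne groups lay well below its companions, and the library of Δdbp7 + Dbp7WT among them fell within the range of the libraries without active Dbp7. The pooled difference was -0.0553 (SE 0.0178, adjusted p = 0.0666), and -0.0553 (SE 0.00553, adjusted p = 0.000295) with the block. On the log2 scale adjusted p was 0.0104. Without replicate 2 of Δdbp7 + Dbp7WT it was -0.0698 (adjusted p = 0.00814), and in each of the other 11 fits that left out a library it did not pass. In the 6 same-numbered pairs the library without active Dbp7 differed from its partner by -0.0783 to -0.0365. The difference was -0.0613 (SE 0.0251, adjusted p = 0.169) between the empty-vector groups and -0.0493 (SE 0.0251, adjusted p = 0.304) between the plasmid-borne groups, and with the block adjusted p = 0.000986 and 0.00475. Δdbp7 + Dbp7DQGD against WT + EV gave -0.0925 (SE 0.0251, adjusted p = 0.0333), which did not pass when any of the 6 libraries of these groups, or replicate 1 or 3 of Δdbp7 + EV, was left out (adjusted p up to 0.104).

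Next to it, A649 scored 0.984, 0.991 and 0.981 in WT + EV and 0.985, 0.982 and 0.972 in Δdbp7 + EV. The libraries of Δdbp7 + Dbp7WT had 0.987, 0.989 and 0.989 and those of Δdbp7 + Dbp7DQGD 0.982, 0.988 and 0.974. The groups overlapped, and the pooled difference was -0.00633 (SE 0.00429, adjusted p = 0.381). Within libraries, A649 exceeded C650 by 0.0131 ± 0.00852 (SD, n = 3) in WT + EV and by 0.0691 ± 0.00612 in Δdbp7 + EV. In the plasmid-borne groups it did so by 0.0597 ± 0.0511 with Dbp7WT and by 0.102 ± 0.0459 with Dbp7DQGD. The gap was 0.049 wider without active Dbp7 (SE 0.0195, adjusted p = 0.113 over the 666 pairs of 25S sites). With the replicate number as a block adjusted p was 0.00131. In limma none of the 8 same-guide pairs passed without the block, where 18.8% of all pairs of 25S sites did, and the U18 pair was the 1 with an unadjusted p under 0.05 (0.0311). With the block the U18 pair passed, as did 51.2% of all pairs. In the separate comparisons none of the 8 passed without the block and none had an unadjusted p under 0.05, against 4.65% of all pairs between the empty-vector groups and 0% between the plasmid-borne groups. With the block the U18 pair passed in both (adjusted p = 0.00506 and 0.0295) and the snR13 pair between the empty-vector groups, and the U18 pair also passed there when these groups were fitted alone (adjusted p = 0.0395). How many of the 666 pairs passed in these fits was not counted, so these calls cannot be set against a background.

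Taken from 5′ ends alone, C650 showed no overlap between the libraries with and without active Dbp7, as did 25.5% of the 55 sites. It scored 0.964 to 0.982 with active Dbp7 and 0.910 to 0.925 without. The difference was -0.0581 (SE 0.00395, adjusted p = 1.99e-06), in a comparison that 41.8% of the 55 sites passed. At A649 the difference from 5′ ends was -0.00423 (SE 0.00365, adjusted p = 0.416), and the 2 changes differed by 0.0539 (SE 0.00622, adjusted p = 6.54e-05). The share of all pairs of 25S sites that passed from 5′ ends was not counted. From 3′ ends alone, C650 scored 0.742 in replicate 2 of Δdbp7 + Dbp7WT and 0.735 in replicate 2 of Δdbp7 + Dbp7DQGD, and 0.865 to 0.978 in the other 10 libraries. The SD within groups at C650 was 0.00624 from 5′ ends and 0.0705 from 3′ ends, and the difference from 3′ ends was -0.0489 (SE 0.0384, adjusted p = 0.922).

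All 3 targets of U24 had lower mean scores without active Dbp7. A1449 scored 0.976, 0.979 and 0.971 in WT + EV and 0.944, 0.941 and 0.934 in Δdbp7 + EV. It scored 0.968, 0.977 and 0.963 in Δdbp7 + Dbp7WT and 0.914, 0.944 and 0.928 in Δdbp7 + Dbp7DQGD. Every library with active Dbp7 lay above every library without it. The libraries with and without active Dbp7 did not overlap, in either direction, at 12.7% of the 55 sites. Among the 13 targets this held only at A1449. The pooled difference was -0.0381 (SE 0.00567, adjusted p = 0.00166), and adjusted p stayed between 0.00101 and 0.00675 when each of the 12 libraries was left out in turn. Within the empty-vector groups it was -0.0357 (SE 0.00801, adjusted p = 0.0272) and within the plasmid-borne groups -0.0405 (SE 0.00801, adjusted p = 0.0296). Each of these lost the threshold without replicate 1 or 2 of its active group or replicate 1 or 3 of its inactive group (adjusted p up to 0.129 and 0.0761). From 5′ and 3′ ends alone the pooled difference was -0.041 (adjusted p = 0.00149) and -0.0342 (adjusted p = 0.0152), both past the threshold. From 3′ ends alone adjusted p was 0.152 between the empty-vector groups and 0.128 between the plasmid-borne groups. With the score from both ends, the difference between the plasmid-borne groups did not pass when these were fitted alone (adjusted p = 0.0908). The difference between Δdbp7 + Dbp7DQGD and WT + EV was -0.0468 (SE 0.00801, adjusted p = 0.0123), which did not pass without replicate 1 of WT + EV (adjusted p = 0.0655) or when these groups were fitted alone (0.0809).

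C1437 scored 0.925, 0.967 and 0.972 in WT + EV and 0.916, 0.945 and 0.938 in Δdbp7 + EV. Scores in Δdbp7 + Dbp7WT were 0.967, 0.973 and 0.943 and those of Δdbp7 + Dbp7DQGD 0.938, 0.943 and 0.916. The library without active Dbp7 was the lower in 6 of 6 same-numbered pairs, although the groups overlapped. The pooled difference was -0.0252 (SE 0.0103, adjusted p = 0.159), with adjusted p = 0.0033 in the paired fit and 0.00874 from 5′ ends. Without replicate 1 of WT + EV, the lowest library with active Dbp7, it was -0.0326 (adjusted p = 0.032). In each of the other 11 fits that left out a library it did not pass (adjusted p up to 0.285).

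G1450, adjacent to A1449, scored 0.956, 0.983 and 0.907 in WT + EV and 0.938, 0.947 and 0.909 in Δdbp7 + EV. In Δdbp7 + Dbp7WT it had 0.966, 0.984 and 0.980 and in Δdbp7 + Dbp7DQGD 0.947, 0.966 and 0.947. Replicate 3 was the lowest of both empty-vector groups, and the groups overlapped. The pooled difference was -0.0202 (SE 0.0125, adjusted p = 0.341), and adjusted p was 0.0298 with the block. From 5′ ends alone it was -0.0248 (SE 0.0042, adjusted p = 0.000711), with 0.974 to 0.994 against 0.954 to 0.968. The changes at the 3 U24 targets did not differ from each other past the threshold: C1437 minus A1449 was 0.0129 (SE 0.0124), C1437 minus G1450 was -0.00499 (SE 0.0175) and A1449 minus G1450 was -0.0179 (SE 0.0125), with adjusted p of 0.381 to 0.884. Intervals of this width do not show that the 3 sites moved alike.

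Of the snR60 targets, A817 had the lowest mean of the 13 sites. It scored 0.919, 0.916 and 0.911 in WT + EV and 0.892, 0.913 and 0.905 in Δdbp7 + EV. Scores in Δdbp7 + Dbp7WT were 0.904, 0.926 and 0.913 and those of Δdbp7 + Dbp7DQGD 0.868, 0.905 and 0.887. The lower library of each same-numbered pair was the 1 without active Dbp7 in 6 of 6 pairs, with some overlap between groups. The pooled difference was -0.0197 (SE 0.00725, adjusted p = 0.116, and 0.0158 with the block). Without replicate 2 of Δdbp7 + Dbp7DQGD it passed (-0.0242, adjusted p = 0.0342), and in each of the other 11 fits that left out a library it did not (adjusted p up to 0.239). G908 stayed between 0.916 and 0.934 with active Dbp7 and between 0.896 and 0.938 without, and its difference was -0.00391 (SE 0.00766, adjusted p = 0.833). The 2 changes differed by -0.0158 (SE 0.0138, adjusted p = 0.508).

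At the adjacent snR13 targets the mean differences had opposite signs, neither past the threshold. A2280 scored 0.979, 0.986 and 0.983 in WT + EV and 0.963, 0.969 and 0.975 in Δdbp7 + EV. The libraries of Δdbp7 + Dbp7WT had 0.966, 0.979 and 0.972 and those of Δdbp7 + Dbp7DQGD 0.981, 0.963 and 0.984. A2281 scored 0.918, 0.912 and 0.924 in WT + EV and 0.923, 0.957 and 0.944 in Δdbp7 + EV. The libraries of Δdbp7 + Dbp7WT had 0.917, 0.970 and 0.925 and those of Δdbp7 + Dbp7DQGD 0.929, 0.970 and 0.948. A2281 was the only target besides G2791 with a higher mean without active Dbp7, by 0.0176 (SE 0.0109, adjusted p = 0.341), and the 2 libraries of replicate 2 from the plasmid-borne groups were its highest. The difference at A2280 was -0.00474 (SE 0.00501, adjusted p = 0.613). Between the empty-vector groups the gap of A2280 over A2281 went from 0.0646 ± 0.00805 (SD, n = 3) to 0.0279 ± 0.014, a change of -0.0367 (SE 0.0181, adjusted p = 0.256, and 0.0436 with the block), while between the plasmid-borne groups the change was -0.00796 (SE 0.0181, adjusted p = 0.921). Whether these changes differ was tested as an interaction, which was 0.0288 (SE 0.0256, adjusted p = 0.999).

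The snR67 and snR48 targets showed no difference past the threshold with or without the block. G2619 scored 0.939 to 0.974 with active Dbp7 and 0.949 to 0.975 without, a difference of -0.00287 (SE 0.00647, adjusted p = 0.854). U2724, the only uridine of the 13, ran from 0.891 to 0.966 with active Dbp7 and from 0.859 to 0.972 without, a difference of -0.00294 (SE 0.0175, adjusted p = 0.87). G2791 had the widest spread of all 13 targets. It scored 0.871, 0.975 and 0.964 in WT + EV and 0.928, 0.957 and 0.966 in Δdbp7 + EV. The libraries of Δdbp7 + Dbp7WT had 0.950, 0.962 and 0.809 and those of Δdbp7 + Dbp7DQGD 0.950, 0.958 and 0.840. Replicate 3 of both plasmid-borne groups and replicate 1 of both empty-vector groups were the low libraries, and its difference of 0.0113 had an SE of 0.0334 (adjusted p = 0.869). G2793, 2 nucleotides downstream, ran from 0.938 to 0.965 with active Dbp7 and from 0.925 to 0.945 without, and differed by -0.00811 (SE 0.00605, adjusted p = 0.449).

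Scores from 5′ and from 3′ ends differed at several targets. 5′ ends gave the higher score in 12 of 12 libraries at A2281 and G1450 and in 11 of 12 at C650, C1437 and U2724, while at G2619 3′ ends gave the higher score in 12 of 12. At A2281 the mean was 0.991 from 5′ ends and 0.877 from 3′ ends, and 92.1% of the read ends at this nucleotide were 3′ ends. At U2724 the means were 0.964 and 0.822. The SD within groups was larger from 3′ ends at 10 of the 13 sites, with medians of 0.0265 against 0.0144. It was 0.109 from 3′ ends at G2791 (0.00849 from 5′ ends) and 0.0996 at U2724 (0.00917 from 5′ ends). The other 24 listed 25S sites showed the same order, with a larger SD from 3′ ends at 23 and medians of 0.0486 against 0.0119. From 5′ ends alone, 4 of the 13 targets passed in the pooled comparison, C650, A1449, G1450 and C1437 (41.8% of the 55 sites), 4 between the empty-vector groups (30.9%) and 3 between the plasmid-borne groups (25.5%). From 3′ ends alone, A1449 passed in the pooled comparison (10.9% of all sites). C650, A1449 and G1450 had no overlap between the 6 and 6 libraries from 5′ ends, as 25.5% of the 55 sites did. At the 7 targets of snR60, snR13, snR67 and snR48 other than A2281 the direction of the pooled difference was downward from 5′ ends, and none passed.

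The read ends themselves were compared with a count model that takes the flanking mean as offset, over 5172 nucleotides of the 18S and 25S rRNAs. A nucleotide that is less methylated has more read ends. In edgeR's quasi-likelihood test none of the 13 targets and none of the 5172 nucleotides passed in the pooled comparison (0%), with 3 targets and 85 nucleotides at an unadjusted p under 0.05. A1449 had 2.39 times the read ends without active Dbp7 (log2 ratio 1.26, adjusted p = 0.0619, edgeR) and C650 2.31 times (log2 ratio 1.21, adjusted p = 0.68). The ratio at C1437 was 1.59 (log2 ratio 0.67). DESeq2 called A1449 (adjusted p = 0.000322, with 0.116% of nucleotides called). With the replicate number as a block edgeR called A1449 (adjusted p = 0.0049) and C650 (adjusted p = 0.0161), and 0.271% of all nucleotides. The ratio was between 1.06 and 1.64 at 7 other targets, and 0.754 at A2281, 0.826 at G2791 and 0.998 at U2724. Between the empty-vector groups and between the plasmid-borne groups none of the 13 passed in edgeR or DESeq2, with 3 and 1 at an unadjusted p under 0.05 in edgeR. Of the 108 other nucleotides within 6 of a target none passed in edgeR without the block in the pooled comparison, and 4 had an unadjusted p under 0.05. With the block and in DESeq2 1 passed, nucleotide 2721, named here after its values were seen. It is not a listed site and lies 3 nucleotides before U2724, in its flank, and its ratio was 1.32 (adjusted p = 0.0133 with the block in edgeR and 0.00685 in DESeq2).

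Across the 12 libraries the scores of same-guide targets did not vary together past the threshold. Pearson's r of the 8 pairs ran from -0.702 to 0.605, with adjusted p of at least 0.155 over the 666 pairs of 25S sites (permutation test, two-sided), whose median r was 0.133 and of which 1.8% passed. C1437 and A1449 had r = 0.605 (permutation p = 0.0404, adjusted 0.278) and Spearman's rho = 0.636 (permutation p = 0.0309, adjusted 0.257). Without the 2 libraries farthest from the median of C1437 r was 0.47, and between deviations from the group means it was 0.111. G2791 and G2793, which share flanks, had r = -0.702 (permutation p = 0.0118, adjusted 0.155) and rho = -0.329 (permutation p = 0.298, adjusted 0.709). Without the 2 libraries farthest from the median of G2791 r was -0.542, and within groups it was -0.824. Libraries of the same set and number were not independent of each other in their deviations, and the permutation treats them as if they were.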

How the data were processed

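For each of the 12 libraries the authors hydrolysed total RNA in alkali, size-selected short fragments, added adapters and ran an Ion Proton sequencer. The submitters' processing notes list cutadapt 2.0 and Bowtie2 2.3.4.1, and reads were mapped by the authors to yeast transcripts. The genome build is not given in the sources used here. The authors deposited raw counts of 5′ ends, 3′ ends and their sum at each nucleotide, and the RMS score, deposited as a fraction of 0 to 1. Recomputing the score from the counts gave the deposited values within 5.00e-10. The deposited overview holds the authors' mean fraction per group, which equals the mean of the libraries at all 13 targets within 0.001. Other scores, held in 24 columns of single libraries, were left aside.

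Scores were tested with limma 3.58.1 (R 4.3.3), with 1 mean per group, at 55 sites in 5 comparisons, and differences between sites within a library at 666 pairs. Read-end counts were tested with edgeR 4.0.16, at nucleotides whose flanks averaged 50 or more ends in each library, with DESeq2 1.42.0 as an alternative. The log2 alternative used -log2(1 - score + 0.01), which rises with the score. Permutation tests drew 100000 resamples. Scripts were tested on simulated data. Members, lists and tests were chosen with earlier results of these data known. The text names all 13 targets and their 8 same-guide pairs, up to 5 nearby nucleotides if called in edgeR's pooled comparison (none was without the block), and other sites only as counts and medians. Gene names of the guides come from the R64 annotation. The range of total read ends per library is given with the results, and the replicates' SD rather than counting sets the precision.

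Same-numbered libraries within the empty-vector set and within the plasmid set were taken as pairs. The labels give only the numbers, and the pairing comes from the data: deviations from the group means over the 55 sites correlated at r = 0.839 to 0.930 in the 6 such pairs, and at -0.722 to 0.0861 between libraries of different number in the same set. Deviations cancel within a group, which by itself pushes the latter values down. Between same-numbered libraries of different sets r was -0.205 to 0.113.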

Additional observations from a re-analysis of the deposited data

Results flagged for a closer look

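In 7 of 26 groups of 6 libraries (13 targets, with and without active Dbp7) the lowest or highest library stood apart from the others by more than Dixon's critical share of the range. Chance gives this in about 5% of groups of independent values from a single normal population. Here each group pooled libraries with different strains or plasmids, and same-numbered libraries deviated together. The 7 of 26 can therefore not be set against 5%. At C650 the lowest library scored 0.871 with active Dbp7 and 0.834 without, and these are replicate 2 of Δdbp7 + Dbp7WT and of Δdbp7 + Dbp7DQGD. At G2791 the lowest without active Dbp7 was 0.840, replicate 3 of Δdbp7 + Dbp7DQGD. At G1450 the lowest with active Dbp7 was 0.907, replicate 3 of WT + EV, and at G2619 it was 0.939, replicate 1 of Δdbp7 + Dbp7WT. At A2281 the highest with active Dbp7 was 0.970, replicate 2 of Δdbp7 + Dbp7WT. At G2793 the lowest without active Dbp7 was 0.925, replicate 2 of Δdbp7 + Dbp7DQGD. The interaction of the change with the set of libraries passed at none of the 13 targets and none of the 8 pairs in limma.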

How the results depend on the processing

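Without active Dbp7, 1 target passed in the pooled comparison, 1 between the empty-vector groups, 1 between the plasmid-borne groups, 2 in Δdbp7 + Dbp7DQGD against WT + EV and 0 in Δdbp7 + Dbp7WT against WT + EV. In that order, 5′ ends alone gave 4, 4, 3 and 5 targets in the first 4 of these, 3′ ends alone gave 0, 0 and 1 in the second to the fourth, and the log2 scale gave 2 and 2 in the first and the second. A fit of the compared groups alone gave 2, 0 and 0 in the second to the fourth. Of all 55 sites, 5′ ends alone called 20 as lower and 3 as higher in the fourth. From 3′ ends alone 0, 0 and 1 of the 55 sites passed in the second to the fourth. Shares over all sites were not counted on the log2 scale, in fits of the compared groups alone or with a library left out. The replicate block gave 5, 3 and 4 targets in the first 3. Leaving out each library in turn gave 1 to 2, 0 to 1, 0 to 1 and 0 to 2 targets, and the libraries whose loss ends the call of A1449 or C650 are named with those results. Same-guide pairs whose change differed numbered 0, and 1, 1 and 1 from 5′ ends (pooled, empty-vector and plasmid-borne comparison), 1, 2 and 1 with the replicate block, 1 between the empty-vector groups fitted alone, and 0 to 1 in the pooled comparison when each library was left out, 1 without replicate 2 of Δdbp7 + Dbp7WT. Of these alternatives, the share over all pairs of 25S sites was counted only for the pooled comparison with the block (51.2%). The count of pairs differing in level, 3, was 3 to 4 throughout. Targets called from read ends numbered 0, and 2 with the replicate block and 1 with DESeq2 in the pooled comparison. A flanking mean of at least 1 left the 5172 nucleotides as they were. Of 8 correlations none changed sign or passed with listed sites left out of the flanks.

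These directions changed. None was at a target called in the comparison concerned, while of the called level differences those of A2280 minus A2281 and G2619 minus U2724 reversed from 5′ ends. In the pooled comparison 3′ ends alone gave 0.000829 at G908, 0.00236 at A2280, 0.0013 at G2619 and 0.0338 at U2724, and 5′ ends alone gave -0.00799 at G2791. A817 between the empty-vector groups was 0.00194 from 3′ ends. Leaving out each library gave -0.00788 to 0.0028 at G908, -0.0075 to 0.00061 at G2619, -0.0132 to 0.00788 at U2724 and -0.0133 to 0.0304 at G2791, and -0.0375 to 0.000191 at G1450 between the empty-vector groups. For pairs it gave -0.00385 to 0.00458 for the level of A1449 minus G1450, and in change -0.0141 to 0.00966 for C1437 minus G1450, -0.0136 to 0.0115 for G2619 minus U2724 and -0.00944 to 0.0400 for G2791 minus G2793. In level, 5′ ends alone gave 0.00197 for A817 minus G908, 0.0113 for C1437 minus A1449, -0.0206 for A1449 minus G1450, -0.0103 for A2280 minus A2281, -0.0144 for G2619 minus U2724 and 0.0448 for G2791 minus G2793. 3′ ends alone gave 0.0076 for C1437 minus G1450, and the log2 scale -0.0174 for A1449 minus G1450. In change, the log2 scale gave 0.0326 for C1437 minus G1450, and for G2619 minus U2724 5′ ends, 3′ ends and the log2 scale gave -0.00465, -0.0325 and -0.0854. The cause was not tested. Read ends at a target, 10 at the fewest, limit single scores.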
